A study of Mus musculus with 8 samples.

Results

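Ebf1, Ebf2, Ebf3 and Ebf4 are the 4 mouse early B cell factors, a family of DNA-binding proteins with a helix-loop-helix domain that pair up on DNA. Zfp423 and Zfp521 are related proteins with many zinc fingers that bind Ebf1. Their accessible chromatin was followed by ATAC-seq in cardiac progenitors, with and without induced GLI1. A peak was counted for one of these 6 genes when that gene was the nearest RefSeq protein-coding gene, within 100 kb, to the peak's summit. This held for 322 of 172983 peaks: 142 of 65318 with GLI1, 140 of 59488 in control at day 7 (D7) and 40 of 48177 in control at day 5 (D5). Overlapping peaks of a list were merged, which left 205 of 121250 accessible regions: 85 of 43043 with GLI1, 86 of 38771 in D7 control and 34 of 39436 in D5 control. The rule itself uses position alone, but the 6 genes were chosen by values of these same lists, namely their numbers of gained and lost regions. Those counts are therefore a description, and no test is made on them.

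The cells were differentiated in culture from mouse embryonic stem cells of the line GLI1-FTA, strain A2Lox.cre, and all 3 groups share that line. The D7 GLI1 OE group (3 libraries) received 500 ng/ml doxycycline for 48 hours, ending at D7, to overexpress GLI1, a transcription factor of the Hedgehog pathway. The D7 control group (3 libraries) and the D5 control group (2 libraries) were untreated, so doxycycline and GLI1 cannot be told apart in the D7 comparison. Each group is represented by 1 pooled peak list, so no difference below has a replicate check, and intervals are Wilson 95% intervals that cover counting error only. The day of the D7 control list is an inference: the labels do not tie it to a day, D5 has a separate list, and its name matches the doxycycline one.

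Early B cell factors set up cell identity in several lineages: Ebf1 is required for B cells, Ebf2 marks brown fat precursors and Ebf3 acts in neurons, while less is known of Ebf4. Zfp423 couples to Smad proteins downstream of bone morphogenetic protein and acts in fat and cerebellar precursors. Zfp521, known from blood and nerve precursors, counteracts Ebf1. An accessible region is a stretch of DNA open to the Tn5 transposase, often a promoter or an enhancer. In a population of cells, more cells with a region open and a region more open per cell cannot be told apart.

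The promoter sequences are shown because the region of highest fold with GLI1 at each of Ebf1, Ebf3, Ebf4 and Zfp423 covered an annotated start. RefSeq promoters of the build GRCm38.p6 were matched at 6 starts of Ebf1, Ebf3, Ebf4 and Zfp423. The 5 windows that a D7 region overlaps are printed 5′ to 3′ on the gene's strand, as the 250 bases before the start. The other, before a second Ebf1 start at position 44620228, was overlapped by no region in any list. Capitals mark CCCNNGGG, the core letters bound by early B cell factors, which read the same on both strands. The first Ebf1 start was covered in both D7 lists, with a D5 region 677 bases away, and lies beside chr11:44617850-44618099 (plus strand).
Ebf1: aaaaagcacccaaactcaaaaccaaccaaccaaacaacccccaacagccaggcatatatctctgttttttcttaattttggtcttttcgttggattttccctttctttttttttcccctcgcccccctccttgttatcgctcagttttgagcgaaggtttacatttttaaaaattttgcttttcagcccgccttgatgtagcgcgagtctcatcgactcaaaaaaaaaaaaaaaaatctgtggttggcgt
The Ebf3 start was covered in all 3 lists (chr7:137314446-137314695, minus strand).
Ebf3: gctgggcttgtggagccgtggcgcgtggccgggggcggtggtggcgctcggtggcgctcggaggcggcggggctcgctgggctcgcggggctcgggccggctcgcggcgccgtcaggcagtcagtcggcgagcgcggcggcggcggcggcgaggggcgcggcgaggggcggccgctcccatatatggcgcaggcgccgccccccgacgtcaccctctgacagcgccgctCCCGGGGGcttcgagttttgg
The Ebf4 start was covered in both D7 lists, and the nearest D5 region ended 51 bases away (chr2:130295689-130295938, plus strand).
Ebf4: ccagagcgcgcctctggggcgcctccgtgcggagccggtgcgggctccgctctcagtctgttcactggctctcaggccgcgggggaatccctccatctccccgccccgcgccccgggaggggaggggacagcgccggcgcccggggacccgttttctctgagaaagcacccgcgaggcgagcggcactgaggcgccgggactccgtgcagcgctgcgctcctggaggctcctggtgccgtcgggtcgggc
The outer Zfp423 start was covered in both D7 lists, with a D5 region 364 bases away (chr8:87959596-87959845, minus strand).
Zfp423 outer start: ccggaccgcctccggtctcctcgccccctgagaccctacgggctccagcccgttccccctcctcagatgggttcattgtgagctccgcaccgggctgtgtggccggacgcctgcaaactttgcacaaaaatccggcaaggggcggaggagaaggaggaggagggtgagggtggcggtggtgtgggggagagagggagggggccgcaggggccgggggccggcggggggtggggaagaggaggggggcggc
The inner Zfp423 start was covered in D7 control and lay 97 bases from a region with GLI1 (chr8:87804440-87804689, minus strand).
Zfp423 inner start: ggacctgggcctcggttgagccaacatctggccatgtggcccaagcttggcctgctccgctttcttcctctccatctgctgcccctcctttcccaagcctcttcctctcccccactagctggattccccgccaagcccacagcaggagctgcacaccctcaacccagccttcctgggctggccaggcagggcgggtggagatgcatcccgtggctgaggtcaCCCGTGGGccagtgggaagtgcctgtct
The letters differed in composition: Ebf1 had 40.0% G and C at the first and 52.0% at the second start, Ebf3 80.0%, Ebf4 75.2%, and Zfp423 71.6% at the outer and 64.8% at the inner start, against a median of 52.4% over 32851 promoters. Of all promoters, 12.5% had as little G and C as the first Ebf1 window or less. CCCNNGGG occurred once at Ebf3 and once at the inner Zfp423 start, and 11.8% of all promoters hold it on either strand. GACCACCCA, a sequence bound by GLI proteins, was searched on both strands and was in none of these windows, so no overlap of the 2 motifs arose. Of all promoters, 0.225% hold GACCACCCA. A match is a description of letters, and its absence says nothing of binding.

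Read against each other, the D7 lists gave the counts by which these genes were chosen, so contrasts among them are a description. A region with GLI1 that overlaps no D7 control region is called gained, and a D7 control region that overlaps none with GLI1 is called lost. Over all 6 genes, 37 of 85 GLI1 regions were gained (43.5%, interval 33.5 to 54.1) against 39.0% of all regions, and 34 of 86 D7 control regions were lost (39.5%, interval 29.9 to 50.1) against 31.6% of all regions. Of the 820 genes with at least 10 regions over both D7 lists, 57.9% had more gained than lost regions and 32.2% had more lost than gained. By gene, Ebf1 had 12 gained and 0 lost regions, while Zfp423 had 4 gained and 11 lost and Ebf2 had 6 gained and 11 lost. The lost shares of Zfp423 and Ebf2 have intervals, given below, that hold the 31.6% of all regions. Ebf3, with 6 gained and 5 lost, and Zfp521, with 6 gained and 7 lost, were near balance, and Ebf4 had 3 gained and 0 lost.

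**Figure D1:**
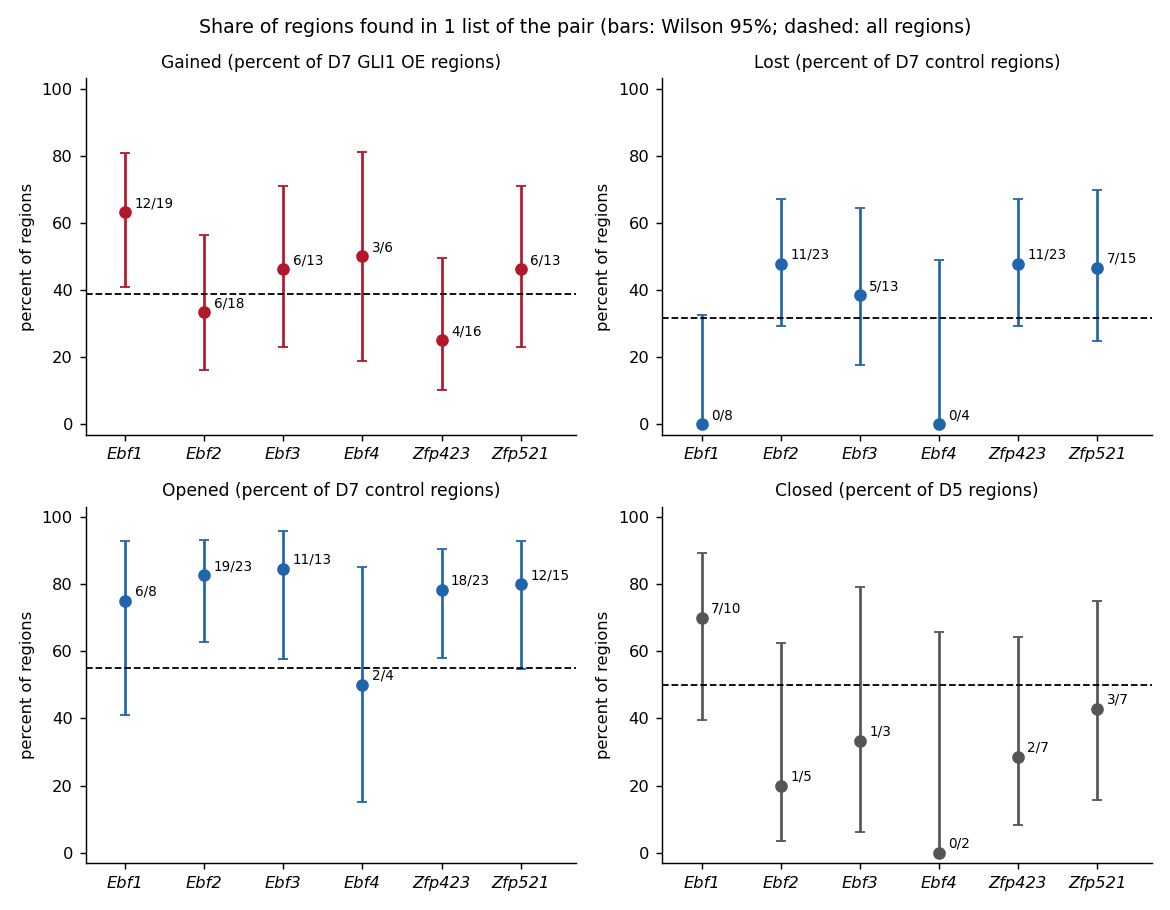
Percent of regions of each gene found in 1 list of a pair, with Wilson 95% intervals as bars, the counts beside each point, and the share over all regions as a dashed line. Ebf1 stands at 12 of 19 gained and 0 of 8 lost, while Ebf2 and Zfp423 each stand at 11 of 23 lost.

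Ebf1, at chr11:44618100-45008096, had 19 regions with GLI1, 8 in D7 control and 10 in D5 control, covering 11.5, 5.91 and 2.21 kb. Its 12 gained regions were 63.2% of its GLI1 regions (interval 41.0 to 80.9). With 0 of 8 lost, counting error alone allows a share of up to 32.4% (the upper end of the interval). Among those 820 genes, 3.78% had 0 lost regions, and 0.488% had a net of gained minus lost of at least 12, as Ebf1 did. Ebf1 was among the genes chosen by these very counts, so the shares only describe its place and measure no rarity. The strongest gained region, at chr11:44916889-44917696, lay 299 kb from the start of the gene, had a fold enrichment of 14.2, and was 49692 bases from the nearest D7 control region. Fold is the authors' height of the peak over background, and the lowest fold called was 2.46 with GLI1, 2.52 in D7 control and 1.42 in D5 control. The next were chr11:44701117-44702321 with a fold of 7.90 and chr11:44849238-44849766 with 6.85. These 3 were strong, meaning that their fold was 2 or more times the minimum called in D7 control (and for lost regions the minimum called with GLI1), a limit set with the values in view. The other 9 had folds from 2.63 to 4.91. Over the 6 genes 12 of 37 gained regions were strong, against 23.2% of all gained regions, and 14 of 34 lost regions were strong, against 24.5% of all lost regions.

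For each gene the 30 kb windows holding most gained and most lost regions were sought. A dense stretch is therefore partly fixed by the search, and how closely regions lie over all genes was not tested. In the densest window of Ebf1, 5 of the 12 gained regions lay within 19.4 kb at chr11:44682927-44702321. There D7 control had 0 regions and D5 control had 1. That D5 region overlapped the gained region at chr11:44696740-44697191, which had a fold of 4.91 with GLI1, was absent in D7 control and had a fold of 8.16 in D5 control. It was the 1 gained Ebf1 region present at D5. Close by, chr11:44707341-44708523 was shared but had a fold of 7.20 with GLI1 against 22.5 in D7 control, and chr11:44665163-44666398 had 3.69 against 10.4. Gained regions and shared regions of lower fold with GLI1 thus stood side by side in this stretch. Over the start, the block at chr11:44616459-44618707 had a fold of 46.9 with GLI1 and 38.7 in D7 control. In D7 control this block was 2 regions, and the one over the start itself had a fold of 6.66.

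Ebf2, at chr14:67233292-67430952, had 18 regions with GLI1, 23 in D7 control and 5 in D5 control. Its 11 lost regions were 47.8% of its D7 control regions (interval 29.2 to 67.0). Of the 23 D7 control regions, 13 lay outside the gene, among them 9 of the 11 lost regions. The strongest lost region, at chr14:67457366-67458586, lay 26.8 kb beyond the gene with a fold of 20.3. It was 25771 bases from any region with GLI1. The next, at chr14:67229629-67230563, lay 3.30 kb below the gene with a fold of 7.02. The densest window held 5 of the 11 lost regions, within 29.9 kb at chr14:67457366-67487248. That stretch had 1 region with GLI1, 6 in D7 control and 0 in D5 control. The 1 region still present there, chr14:67484321-67485427, had a fold of 12.8 with GLI1 against 34.7 in D7 control. The flank beyond the gene therefore held both losses and a weakened region.

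Inside Ebf2 the picture differed. Of the 18 GLI1 regions of Ebf2, 14 lay within the gene, among them all 6 gained regions. The densest window held 4 of the 6, in 6.27 kb at chr14:67265354-67271619, with folds of up to 6.49. Next to them, chr14:67271691-67272803 was shared, with a fold of 24.0 with GLI1 against 14.8 in D7 control. By contrast chr14:67383065-67384399 had a fold of 11.1 with GLI1 against 36.2 in D7 control. Below the gene, chr14:67220673-67221394 had 3.86 against 23.6 and chr14:67188320-67189278 had 11.4 against 23.0. The block over the lower end of the gene, chr14:67231765-67235978, was near equal, at 49.7 with GLI1 and 51.8 in D7 control.

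Ebf3, at chr7:137193671-137322805, had 13 regions with GLI1, 13 in D7 control and 3 in D5 control. The block over the start, chr7:137313014-137315586, had a fold of 30.9 with GLI1 and 35.8 in D7 control. At chr7:137268328-137269867 the fold was 18.8 with GLI1 against 9.36 in D7 control, a ratio of 2.01. It was the 1 shared block at the 6 genes that was at least 2 times stronger with GLI1. The 2 strongest gained regions each had a fold of 5.09, at chr7:137301511-137301777 and chr7:137308424-137308690. D5 control held the first of these with a fold of 5.13. The strongest lost regions had folds of 5.94 and 5.40.

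Ebf4, at chr2:130295126-130370482, had 6 regions with GLI1, 4 in D7 control and 2 in D5 control, the fewest of the 6 genes. The block over its start, chr2:130294571-130296474, had a fold of 16.9 with GLI1 and 13.3 in D7 control. Its 3 gained regions had folds from 3.69 to 4.74 and none was strong. With so few regions, its 0 of 4 lost allows an interval up to 49.0%.

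**Figure D2:**
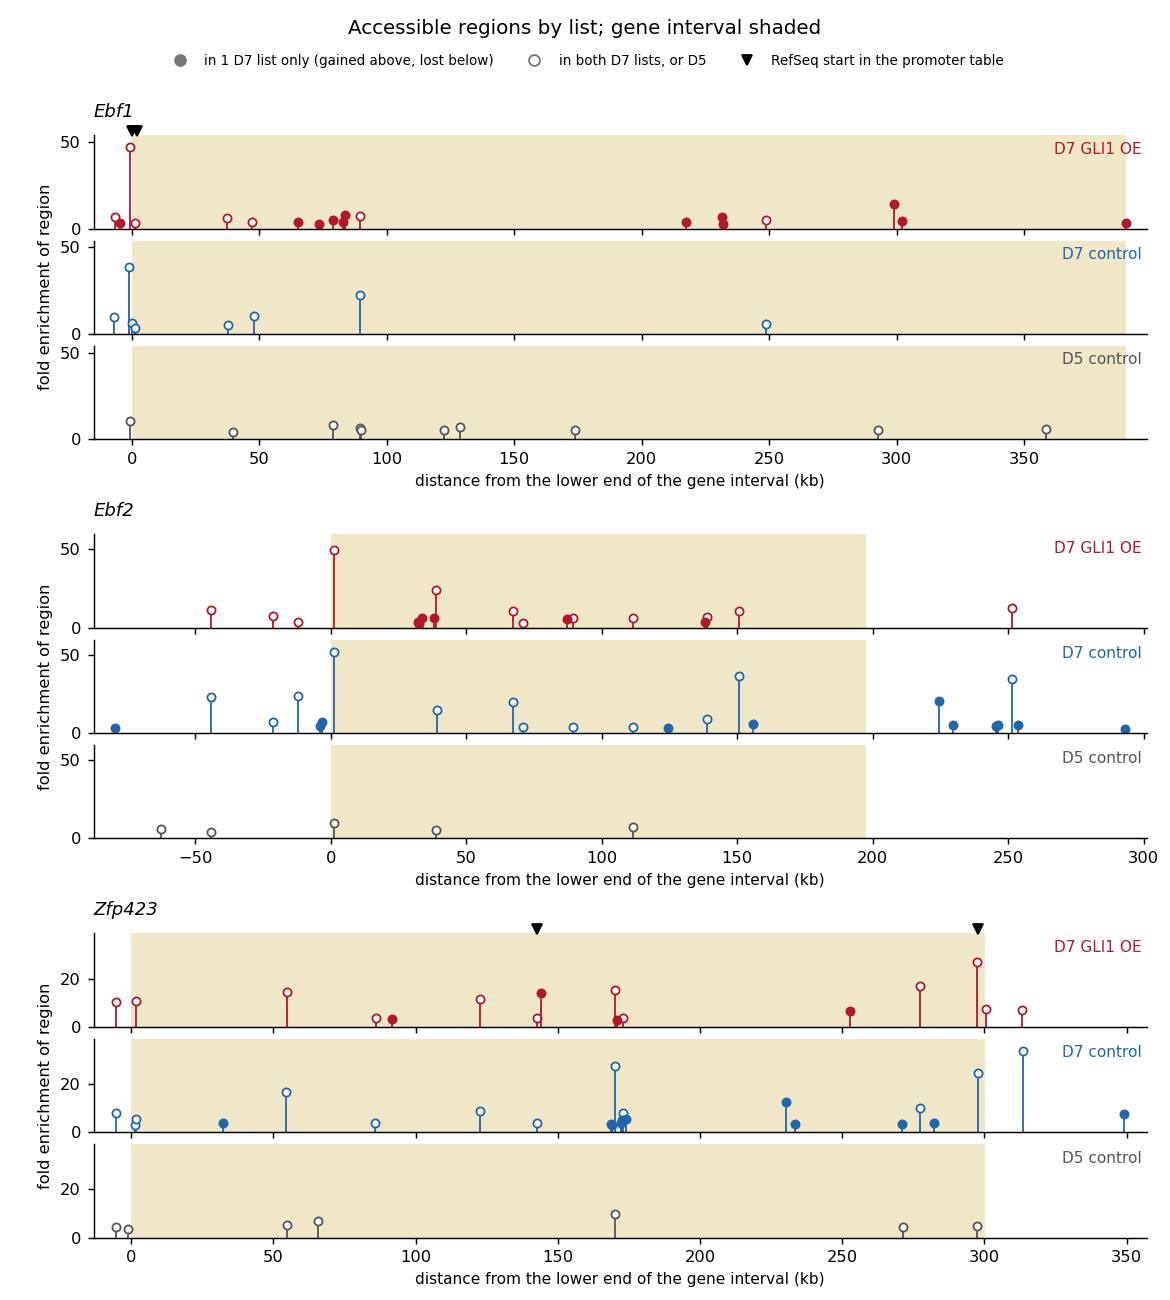
Fold enrichment of each region (vertical axis) against distance in kb from the lower end of the gene interval (horizontal axis, shaded over the gene) for Ebf1, Ebf2 and Zfp423, with D7 GLI1 OE above D7 control above D5 control. Filled points were in 1 D7 list, open points in both D7 lists or at D5, and triangles are RefSeq starts. Ebf1 has 12 filled points in its row with GLI1 and 0 in its D7 control row.

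Zfp423, at chr8:87661810-87962053, had 16 regions with GLI1, 23 in D7 control and 7 in D5 control. Its 11 lost regions were 47.8% of its D7 control regions (interval 29.2 to 67.0). Of the 23 D7 control regions, 20 lay inside the gene, among them 10 of the 11 lost regions. The strongest lost regions were chr8:87891887-87892233, with a fold of 12.6, and chr8:88010581-88010939, with 7.38. A net of gained minus lost of -7 or lower, as at Zfp423, was seen at 1.34% of the 820 genes, and one of -5 or lower, as at Ebf2, at 6.10%. Both genes were chosen by such counts, so these shares too are a description and not a test. The densest window of lost regions, 5.65 kb at chr8:87830187-87835837, held 5 of them beside shared regions and a gained region. That gained region, chr8:87832614-87832813, had a fold of 2.98. All 5 lost regions lay within 1 kb of a region with GLI1, at 123 to 605 bases. Of lost regions at the 6 genes 8 of 34 lay that close, against 18.8% of all lost regions, and of gained regions 8 of 37 lay within 1 kb of a D7 control region, against 17.1%. The shared block between them, chr8:87831089-87832289, had a fold of 15.3 with GLI1 against 27.4 in D7 control.

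The 4 gained regions of Zfp423 included one of the strongest at these genes, chr8:87805483-87806126, with a fold of 14.0. It lay 1044 bases from the inner start, upstream of it, and 736 bases from a D7 control region. The D7 control region over the inner start had a fold of 3.78, and the GLI1 region 97 bases from that start had 3.86. At the outer start the block chr8:87957731-87963302 had 27.0 with GLI1 and 24.7 in D7 control. Beyond the upper end, chr8:87974637-87976042 had 7.20 with GLI1 against 33.7 in D7 control.

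Zfp521, at chr18:13687013-13972749, had 13 regions with GLI1, 15 in D7 control and 7 in D5 control. Its strongest block, chr18:13971964-13973219, lay at the upper end of the gene, with a fold of 60.0 with GLI1 and 67.0 in D7 control. The largest weakening among shared blocks of the 6 genes was at chr18:14004042-14004857, 31.9 kb beyond that end, with a fold of 3.34 with GLI1 against 23.6 in D7 control. Blocks at chr18:13667435-13668529 (3.51 against 10.1) and chr18:13886808-13887373 (4.56 against 11.9) were also weaker with GLI1. Its strongest gained region had a fold of 6.85 and its strongest lost region 6.12.

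**Figure D3:**
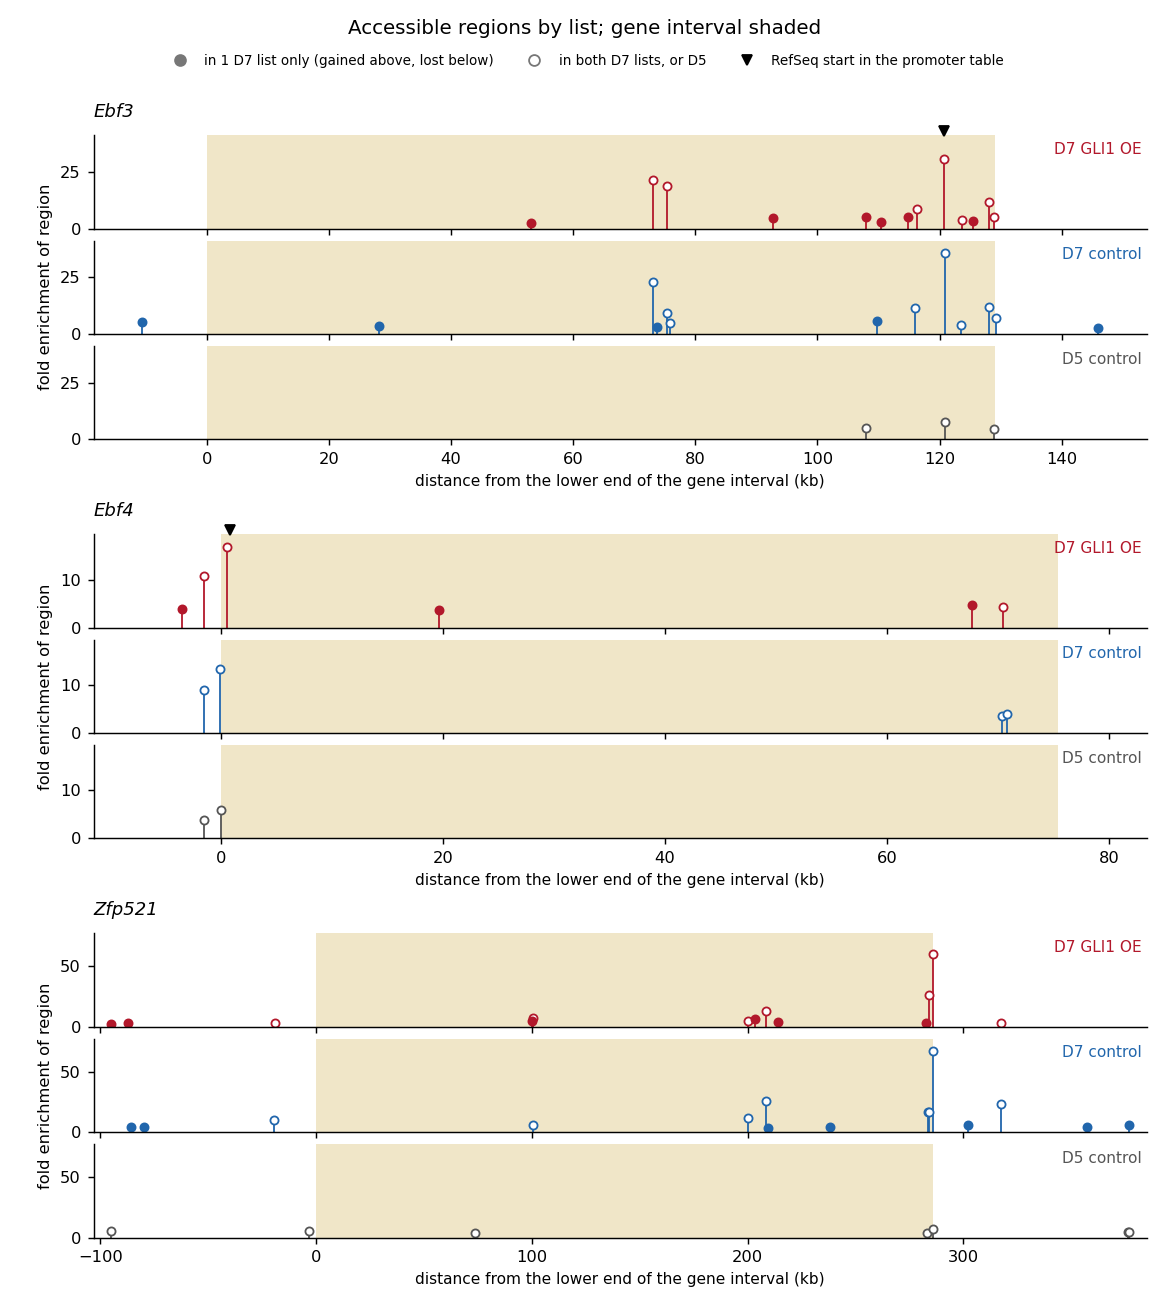
Fold enrichment of each region against distance in kb from the lower end of the gene interval for Ebf3, Ebf4 and Zfp521, drawn as for the other genes, with D7 GLI1 OE above D7 control above D5 control. The highest point of each gene in both D7 rows is open, that is, present in both lists, at folds of 30.9 and 35.8 for Ebf3, 16.9 and 13.3 for Ebf4, and 60.0 and 67.0 for Zfp521.

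Regions found in both D7 lists were joined into 47 shared blocks at the 6 genes, and the highest fold with GLI1 was divided by that in D7 control. In 11 of the 47 the fold was at least 2 times weaker with GLI1 (23.4%, interval 13.6 to 37.2), against 7.30% of 24942 shared blocks. In 1 of 47 it was at least 2 times stronger, against 4.17% of all. The median ratio was 0.896 at the 6 genes and 1.06 over all blocks. These folds come from the same D7 lists as the gained and lost counts by which the genes were chosen. The shares are therefore a description and not a test. The weaker blocks were 4 of 12 at Ebf2, 3 of 7 at Zfp521, 2 of 7 at Ebf1, 2 of 11 at Zfp423, 0 of 7 at Ebf3 and 0 of 3 at Ebf4.

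The location of the blocks bears on that share. Of all blocks within 1 kb of an end of their nearest gene, 0.806% were weaker, and 43 of the 47 blocks at the 6 genes lay farther away, where 11 of 43 were weaker (25.6%, interval 14.9 to 40.2) against 12.4% of all such blocks. Blocks over 1 kb from the gene ends with a fold of at least 10 in either D7 list were also set apart. Of these, 10 of 28 at the 6 genes were weaker (35.7%, interval 20.7 to 54.2), against 21.4% of 6116, a share that the interval holds. When the fold of at least 10 was asked of D7 control alone, which favours weaker blocks, 10 of 22 were weaker (45.5%, interval 26.9 to 65.3) against 25.7% of 5081. These subsets were chosen after the values were seen.

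**Figure D4:**
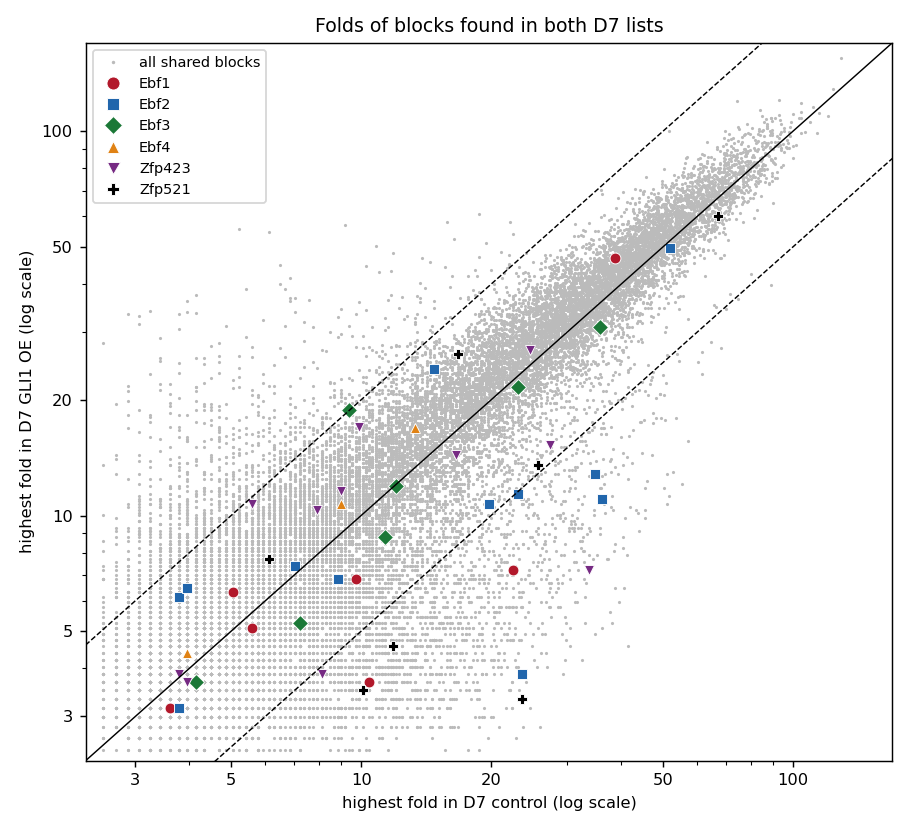
Highest fold with GLI1 against highest fold in D7 control for each shared block, both on log axes, with all 24942 blocks in grey and the 47 blocks of the 6 genes in colour. The solid line marks equal folds and the dashed lines a ratio of 2; 11 coloured points lie below the lower dashed line.

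The comparison of D7 control with D5 control asks how these genes' chromatin changed over differentiation without GLI1. A D7 control region absent from D5 is called opened, and a D5 region absent from D7 control is called closed. Lost regions absent from D5 thus count as opened, and the 6 genes were chosen partly by their lost regions. The opened share is therefore a description and not a test. At the 6 genes 68 of 86 D7 control regions were opened (79.1%, interval 69.3 to 86.3), against 55.0% of all, and 14 of 34 D5 regions were closed (41.2%, interval 26.4 to 57.8), against 19719 of 39436 over all genes. More opened than closed regions were seen at Ebf2 (19 opened, 1 closed), Ebf3 (11 and 1), Zfp423 (18 and 2), Zfp521 (12 and 3) and Ebf4 (2 and 0), and at 74.4% of the 820 genes. Ebf1 had 6 opened and 7 closed, a net of -1 that turned to 1 under 3 of 6 other settings. The D5 list was called with a local background and had peaks down to 124 bp, against 200 bp at D7. It covered 9.27 kb at the 6 genes against 63.2 kb in D7 control, and 13.1 Mb against 27.2 Mb over all regions. The part of these differences between the lists in the opened counts was not tested.

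The closed regions of Ebf1 lay inside the gene. Of its 10 D5 regions, 6 had no counterpart in either D7 list, against 17247 of 39436 over all D5 regions. These 6 had folds from 4.36 to 7.23, the highest at chr11:44746817-44747001. Set beside D5, the GLI1 list gave like counts to D7 control, with which it shares the D5 list: 66 of 85 GLI1 regions were absent from D5 (77.6%, interval 67.7 to 85.2) against 56.9% of all, and 14 of 34 D5 regions were absent with GLI1 against 46.7% of all. Gained regions absent from D5 are part of those 66, and the 6 genes were chosen partly by their gained regions. Of gained regions at the 6 genes 3 of 37 were present at D5 (8.11%, interval 2.80 to 21.3), against 13.5% of all gained regions. Of lost regions 2 of 34 were present at D5 (5.88%, interval 1.63 to 19.1), against 8.95% of all. Both intervals hold the share of all regions.

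The pattern of a gene was written as counts in 7 classes: gained, shared or lost at D7, each absent or present at D5, and D5 only. By cosine similarity over these classes, among 1381 genes with at least 10 such regions, the genes most like Ebf1 were Tpcn2 (0.9836) and Akap7 (0.9822). Those most like Ebf2 were Ttbk1 (0.9941) and Kcnn3 (0.9896), and those most like Zfp423 were Cacna1d (0.9896) and Kcnn3 (0.9881). Ebf3 was closest to Irx1 (0.9931) and Smad7 (0.9889), and Zfp521 to Rad51b (0.9933) and Nxn (0.9876). Ebf2 and Zfp423 were alike at 0.9876, and Ebf2 was 0.9659 to Zfp521 and 0.9639 to Ebf3. Ebf1 was 0.724 to Zfp521, 0.6949 to Ebf3, 0.5688 to Ebf2 and 0.5364 to Zfp423.

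Among 13 genes reported to be regulated by early B cell factors, 15 of 37 GLI1 regions were gained (40.5%) and 17 of 37 D7 control regions were lost (45.9%), against 39.0% gained and 31.6% lost of all regions, and the median net per gene was 0, as over all genes. More gained than lost regions were seen at Pax5, a B cell identity factor, with 4 gained and 0 lost, and at Pparg, a master factor of fat cells, with 2 and 1. More lost than gained were seen at Prdm16, a brown fat regulator, with 4 gained and 10 lost, and at Atp2a1, a muscle calcium pump, with 0 and 1. Cd79a, Igll1, Vpreb1 and Blnk, which serve B cells, had no region in any list. Among 21 signalling partners of Zfp423 and Zfp521, 32 of 95 GLI1 regions were gained (33.7%) and 20 of 87 D7 control regions lost (23.0%), against 39.0% and 31.6% of all regions. Of these partners, Rxra, a retinoid receptor, had 8 gained and 2 lost and Smad5 had 0 and 2. No interval was computed for either gene list, so its distance from the share of all regions is not read as a result.

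As a check of the groups, Gli1 had 6 gained and 0 lost regions. All 6 lay inside the gene, with folds of 9.30 to 19.3, and the origin of the reads in them was not tested. Markers of cardiac progenitors had a region at 8 of 8 genes in each list, those of neural progenitors at 5 of 5 in each, and those of endoderm at 3 of 3 in each. B cell markers had one at 1 of 4 genes with GLI1, 2 of 4 in D7 control and 1 of 4 in D5 control. In that order, endothelial and blood markers had one at 4, 4 and 5 of 5 genes, and pluripotent markers at 1, 2 and 2 of 3. Paraxial mesoderm and skeletal muscle markers had one at 4 of 5 genes in each list. Regions near cardiac markers numbered 36 with GLI1, 35 in D7 control and 46 in D5 control. In the same order there were 37, 26 and 20 near neural markers, 23, 15 and 21 near endothelial and blood markers, and 15, 13 and 5 near paraxial mesoderm and skeletal muscle markers. Near endoderm markers there were 23, 9 and 14, of which Foxa2 had 13, 2 and 9 and Epcam 4, 5 and 2. Near pluripotent markers there were 4, 3 and 7. The part of cell mixture in the counts at the 6 genes was not tested. At the edge of the rule, the farthest GLI1 region counted lay 95.1 kb from Zfp521 with a fold of 2.81, and the nearest left out lay 115 kb from Zfp521 with a fold of 3.16.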

How the data were processed

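ATAC-seq peak lists of 3 groups were used, 1 pooled list each. Per the submitters' processing notes, the build was mm10 and the tools were MACS2 2.1.1, Picard, Bowtie2 2.3.2 and SAMtools 1.5; their options are not given in the sources used here. In the deposited lists the authors give each peak a fold enrichment over background (a ratio), a −log10 p and −log10 q, and a score, which is the −log10 q multiplied by 10. The summit's offset in bases, also deposited, was used to place it. Every fold of both D7 lists was a whole multiple of 1 step, to within 0.02 steps, so each was called against a constant background, of 4.70 reads per base with GLI1 and 4.56 in D7 control, and their folds were set side by side. Depth is known only from these backgrounds, and the D5 list has a local background.

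Peaks were merged, compared by overlap of at least 1 base and assigned to the nearest of 21883 protein-coding gene intervals (RefSeq, GRCm38.p6), which give no exons, with Python 3.11.15 and pandas 2.3.3. The overlap code was tested on simulated data and against bedtools 2.31.1. No p-value between conditions is given. Genes named are the 6 members, Gli1, the 2 genes most like each member, and at most 4 per gene list by net of gained minus lost; regions named are mainly the 2 with the highest −log10 q per class, and shared blocks that moved were named after their values were seen. The members and lists were chosen with earlier results of these data known. Alternatives are given in the closing section.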

Additional observations from a re-analysis of the deposited data

How the results depend on the processing

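No paired analysis was possible because the libraries of a group were pooled before peaks were called. No library could be left out either. Gained regions at the 6 genes numbered 37, and 23 with a −log10 q of at least 5 or 12 with strong regions alone. Lost regions numbered 34, and 22 within 25 kb or 14 strong ones. Closed regions numbered 14, and 7 with a −log10 q of at least 5, where the share of lost regions present at D5 was 0 in place of 5.88%. The 1 shared block stronger with GLI1 became 0 when ratios were divided by the median ratio of all blocks. The other counts for the 6 genes together stayed within 1.5 times those reported, and the share of gained regions present at D5 was 4.35% with a −log10 q of at least 5, in place of 8.11%.

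Net gained minus lost stayed positive at Ebf1 (3 to 15) and negative at Zfp423 (-9 to -2), and ranged from 0 to 3 at Ebf4, over the 8 settings run. It turned at Ebf2 from -5 to 2 within 25 kb, at Ebf3 from 1 to -1 with lists of equal length and with each summit counted, and at Zfp521 from -1 to 1 within 25 kb. Net opened minus closed at Ebf1 turned from -1 to 1 with a −log10 q of at least 5, with the nearest gene end and with each summit counted. Strong regions, distance to the other list, block scaling and block subsets were added after the data were seen. Depth limits regions near the lowest folds: a gained region may lie just under the threshold of the other list.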
